A study of Mus musculus with 27 samples.

Results

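This account compares mouse hearts 11 days after transverse aortic constriction (TAC) and treatment with JQ1 with hearts of the same day after sham surgery and vehicle, across all genes measured. The 6 arrays compared, 3 per group, are all those of both groups among the 27 arrays of the series. Where several probe sets shared a gene symbol, the brightest on average across the series stands for the gene, which gave 19937 genes. TAC JQ1 hearts had the aortic arch tied down with suture and then injections of JQ1 that began 1.5 days after the operation. TAC vehicle hearts, also 3 arrays at day 11, had the same operation and vehicle in place of JQ1, and sham hearts had a sham operation and vehicle, which the sample descriptions name as DMSO. All mice were C57Bl/6J males of 10 to 12 weeks from shared litters, with no engineered allele named. Each RNA came from 10 to 20 mg of heart, and the chamber is not stated. The dose of JQ1 is not given, and no group had sham surgery with JQ1, so the effects of the operation and of the drug cannot be told apart in the comparison with sham alone. Nothing in the labels says that the 3 arrays of a group come from separate animals, so p-values measure the spread between these samples. The same 3 groups exist at days 3 and 28, and all 27 arrays entered the fit.

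TAC raises the pressure against which the left ventricle ejects blood. The loaded heart grows, its muscle cells turn on genes of the fetal heart, its fibroblasts lay down matrix, and transcripts for burning fatty acids decline. BET proteins are readers of acetylated histones that help RNA polymerase II leave promoters and enhancers, in part by bringing in the elongation kinase P-TEFb. JQ1 occupies the pocket with which they bind acetylated lysine. The question put here is which transcripts of a pressure-loaded heart still differed from sham while JQ1 was given, and which differed from sham with JQ1 but not with TAC alone.

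Levels are log2 signal as deposited and differences are log2 differences ± standard error. The standard error of a gene rests on its spread within all 9 groups of the series, not on the arrays compared alone. A gene is called where the adjusted p of limma, over the 19937 genes, is under 0.05. In TAC JQ1 hearts 999 genes were higher than in sham hearts (5.01% of those tested) and 1098 were lower (5.51%), 2097 in all (10.5%). Of these, 190 were higher and 188 were lower by at least 1.5-fold (0.953% and 0.943%). The arrays of the groups did not overlap in 6506 genes (32.6%), among them 2082 of the 2097 called. TAC vehicle hearts differed from sham hearts in 3097 genes (15.5%), 1555 higher (7.80%) and 1542 lower (7.73%). Set directly against TAC vehicle hearts, TAC JQ1 hearts differed in 3180 genes (16.0%), 1500 higher (7.52%) and 1680 lower (8.43%). These comparisons share arrays, so each is given by its own values. Counts for gene lists below are to be read beside the shares of all genes called in the same comparison. The count of 2097 became 1180 without TAC JQ1 replicate 1, 1329 without TAC JQ1 replicate 2, 1331 without sham replicate 1 and 1366 without sham replicate 2, in which cases the higher genes came to 528, 581, 636 and 577.

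The 3 comparisons sort genes into classes. A gene still changed was called in the same direction against sham in TAC JQ1 and in TAC vehicle hearts, as were 390 higher genes (1.96% of all genes) and 472 lower genes (2.37%). A gene newly changed was called against sham in TAC JQ1 hearts, was not called in TAC vehicle hearts, and also differed between the treatments in that direction, as did 346 higher (1.74%) and 320 lower genes (1.61%). A gene no longer changed was called against sham in TAC vehicle hearts, was not called in TAC JQ1 hearts, and differed between the treatments towards sham. There were 691 of these among genes higher with TAC (3.47%) and 573 among the lower (2.87%). A further 57 genes turned over, being called in opposite directions (0.286%). Another 512 genes called in TAC JQ1 hearts and not in TAC vehicle hearts were not called between the treatments, nor were 914 of the reverse kind.

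Genes still changed had median differences from sham of similar size with JQ1 and without it. Those still higher had a median difference from sham of 0.46 in TAC JQ1 hearts and 0.51 in TAC vehicle hearts, and those still lower −0.42 and −0.47. Of the 862 genes still changed, 731 were not called between TAC JQ1 and TAC vehicle hearts, 109 lay closer to sham in TAC JQ1 hearts and 22 lay further from it. Genes newly higher had a median of 0.37 in TAC JQ1 hearts and −0.01 in TAC vehicle hearts. These medians describe classes that were defined on the same values. Single arrays moved the class sizes: without TAC JQ1 replicate 1 the still higher, newly higher and newly lower classes held 246, 165 and 184 genes, and without TAC JQ1 replicate 2 the newly higher, newly lower and no longer lower classes held 180, 205 and 377. Without sham replicate 1 the still higher and still lower classes held 244 and 295, and without sham replicate 2 the still higher and newly higher classes held 254 and 208. The no longer lower class held 331 without TAC vehicle replicate 1 and 336 without replicate 2. The turned over class held 31 without TAC JQ1 replicate 1, 32 without TAC JQ1 replicate 2, 37 and 36 without TAC vehicle replicates 1 and 3, and 19, 24 and 21 without sham replicates 1, 2 and 3.

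The genes that define heart muscle were high in every group. The mean level of cardiac troponin T, Tnnt2, was 13.77 in TAC JQ1 hearts, 13.67 in TAC vehicle hearts and 13.75 in sham hearts, and that of the ventricular light chain Myl2 was 13.42, 13.26 and 13.35. The atrial light chain Myl7 lay at 6.17, 6.30 and 6.25. These 3 genes were picked as defining markers after their values were seen. Of 6 atrial markers 2 were higher in TAC JQ1 hearts, Nppa and Myl4, which are also stress genes of the ventricle, and the mean level of the list, each gene centred on its mean over the 27 arrays, was 0.005 to 0.098 in TAC JQ1 hearts, 0.153 to 0.216 in TAC vehicle hearts and −0.226 to −0.119 in sham hearts. Of the red cell markers 2 were measured, and TAC JQ1 replicate 3 stood apart for both. Alas2, the heme synthesis enzyme of red cells, lay at 9.52, 9.38 and 10.87 in TAC JQ1 hearts, 8.60, 9.04 and 8.86 in TAC vehicle hearts and 9.03, 9.04 and 9.16 in sham hearts, and its call (0.85 ± 0.26, adjusted p = 0.0341) was lost without that array (0.37, adjusted p = 0.223) or any single sham array. Across 23 cardiomyocyte identity and sarcomere genes 1 was higher and 3 were lower in TAC JQ1 than in sham hearts. Over all genes 5.01% were higher and 5.51% lower. The median difference of the list was 0.02, against −0.04 over all genes. The small heat shock protein Hspb7 was higher by 0.24 ± 0.06. The kinase Tnni3k (−0.43 ± 0.07), the ryanodine receptor Ryr2 (−0.24 ± 0.07) and the transcription factor Mef2d (−0.32 ± 0.09) were lower. The call of Hspb7 was lost without sham replicate 1, that of Ryr2 without any single array of either group, and that of Mef2d without TAC JQ1 replicate 1 or 3 or sham replicate 1 or 3. With arrays centred on their median the calls of Ryr2 (adjusted p = 0.0818) and Mef2d (0.0554) were lost, as were that of Ryr2 with the replicate number as a block (0.0506) and that of Mef2d with the mean of its probe sets (0.183).

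Some fetal and stress genes of cardiomyocytes stayed above sham and others were not called against it. Of 25 such genes 13 were higher and 0 were lower in TAC JQ1 hearts, against 20 and 0 in TAC vehicle hearts, with median differences of 0.46 and 0.79. By class 12 were still higher and 6 no longer higher. Acta1, the skeletal muscle actin of the fetal heart, had levels of 12.64, 12.42 and 11.98 in TAC JQ1 hearts, 13.34, 13.40 and 13.51 in TAC vehicle hearts and 10.34, 11.06 and 11.03 in sham hearts. The TAC JQ1 arrays lay between the other groups without overlap, and the difference from sham was 1.53 ± 0.29 (2.90-fold, adjusted p = 0.00119). Nppa, which encodes the atrial natriuretic peptide, a hormone released on stretch, lay at 12.93, 13.01 and 12.76 in TAC JQ1 hearts, 13.51, 13.44 and 13.56 in TAC vehicle hearts and 11.59, 11.89 and 11.59 in sham hearts. It showed the same order, 1.22 ± 0.18 above sham (adjusted p = 0.000141) and −0.60 ± 0.18 from TAC vehicle hearts (adjusted p = 0.0269).

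Myh7, the slow myosin heavy chain of the fetal rodent ventricle, was higher than in sham by 1.30 ± 0.22 in TAC JQ1 hearts and 1.81 ± 0.22 in TAC vehicle hearts, and the difference between the treatments was not called (−0.51 ± 0.22, adjusted p = 0.118). Nmrk2, a muscle kinase that makes a precursor of NAD, was at 9.80, 9.58 and 9.54 in TAC JQ1 hearts, 9.75, 9.55 and 10.24 in TAC vehicle hearts and 8.01, 7.96 and 7.72 in sham hearts. Its TAC JQ1 and TAC vehicle arrays were intermingled above sham, at a difference of 1.75 ± 0.34 for TAC JQ1 (3.36-fold, adjusted p = 0.00147). The stretch-responsive Ankrd1 was 0.57 ± 0.07 above sham and −0.28 ± 0.07 from TAC vehicle hearts. Mt2, a metallothionein that binds zinc, was further from sham in TAC JQ1 hearts (1.52 ± 0.18) than in TAC vehicle hearts (0.58 ± 0.18), with a called difference between them (adjusted p = 0.000831).

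Rcan1 and Nppb, which respond to load, were not called against sham in TAC JQ1 hearts. Rcan1, a feedback inhibitor of calcineurin, lay at 10.38, 9.89 and 9.66 in TAC JQ1 hearts, 11.26, 11.12 and 11.69 in TAC vehicle hearts and 9.50, 9.90 and 9.69 in sham hearts. Its TAC JQ1 arrays overlapped sham and lay below every TAC vehicle array, with differences from sham of 0.28 ± 0.18 (adjusted p = 0.387) for TAC JQ1 and 1.66 ± 0.18 for TAC vehicle. Nppb, which encodes the brain natriuretic peptide, varied widely among TAC JQ1 hearts, at 11.90, 12.43 and 10.87 in TAC JQ1 hearts, 12.62, 12.49 and 13.12 in TAC vehicle hearts and 10.76, 11.50 and 11.50 in sham hearts. It was not called against sham (0.48 ± 0.32, adjusted p = 0.4) and was lower than in TAC vehicle hearts (−1.01 ± 0.32, adjusted p = 0.032). Myh6, the adult fast myosin, differed from sham by 0.03 ± 0.05 in TAC JQ1 hearts and −0.11 ± 0.05 in TAC vehicle hearts, neither called. The calls of the Z-disc filamin Flnc (0.46 ± 0.15) and of the atrial light chain Myl4 (0.40 ± 0.11) were each lost without several single arrays, among them TAC JQ1 replicates 1 and 2 and every sham replicate.

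**Figure D1:**
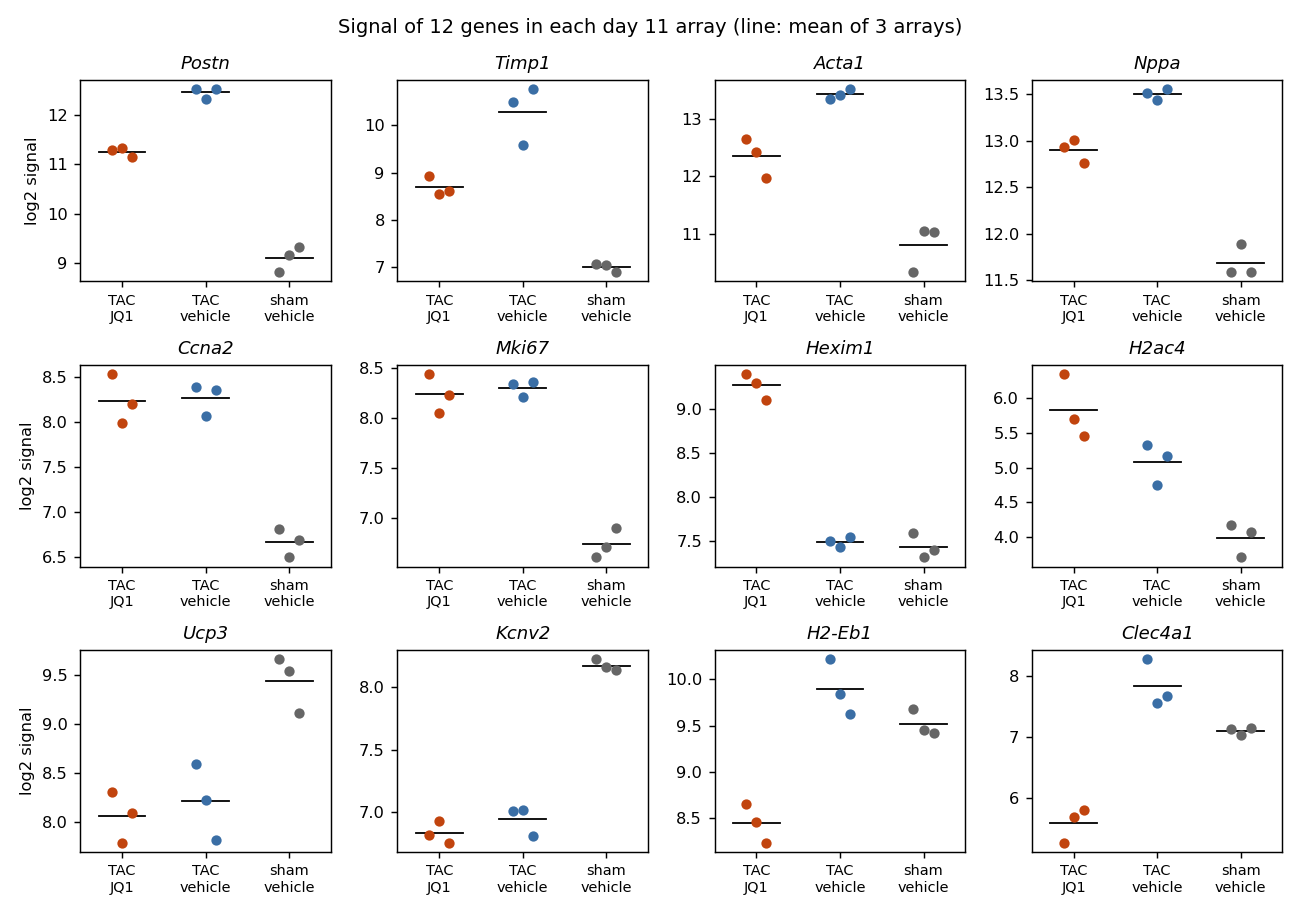
Log2 signal of 12 genes (vertical axes) in the 9 arrays of day 11, with TAC JQ1 left, TAC vehicle in the middle and sham right; each point is an array and each line a group mean. Postn and Acta1 lie between TAC vehicle and sham, Ccna2 and Mki67 lie with TAC vehicle, Hexim1 stands above both other groups in TAC JQ1 hearts, and Clec4a1 lies at 5.28 to 5.81 in TAC JQ1 hearts, below sham, where TAC vehicle lies above sham.

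Some matrix genes were also still above sham, and most were lower than with TAC alone. Of 38 matrix genes other than collagens 15 were higher and 0 lower in TAC JQ1 hearts, against 30 and 0 in TAC vehicle hearts, with medians of 0.41 and 1.05. All 15 were still higher, 13 other members were no longer higher, and 24 of the 38 were lower in TAC JQ1 than in TAC vehicle hearts. Postn, a matricellular protein of activated fibroblasts, lay at 11.29, 11.34 and 11.14 in TAC JQ1 hearts, 12.52, 12.33 and 12.53 in TAC vehicle hearts and 8.82, 9.16 and 9.33 in sham hearts. The groups fell into separate ranges, and the difference from sham was 2.15 ± 0.24 in TAC JQ1 hearts (4.44-fold, adjusted p = 4.63e-06) and 3.35 ± 0.24 in TAC vehicle hearts. Timp1, an inhibitor of matrix metalloproteinases, had levels of 8.93, 8.55 and 8.60 in TAC JQ1 hearts, 10.50, 9.58 and 10.78 in TAC vehicle hearts and 7.05, 7.03 and 6.88 in sham hearts. It too had separate ranges, at 1.71 ± 0.36 from sham for TAC JQ1 (adjusted p = 0.00304) and 3.30 ± 0.36 for TAC vehicle.

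The collagen-binding glycoprotein Sparc (0.61 ± 0.08), the proteoglycan Bgn (0.59 ± 0.08) and the matrix glycoprotein Fbln2 (0.67 ± 0.08) were still higher, and each was lower in TAC JQ1 than in TAC vehicle hearts. Thrombospondins, tenascin and a crosslinking enzyme were among the largest of those no longer higher. Thbs4, a thrombospondin of stressed muscle, lay at 8.23, 8.25 and 7.98 in TAC JQ1 hearts, 10.46, 10.05 and 10.40 in TAC vehicle hearts and 7.42, 7.67 and 7.31 in sham hearts. Its TAC JQ1 arrays were above every sham array, but the difference of 0.69 ± 0.35 was not called (adjusted p = 0.244), while that from TAC vehicle hearts was −2.15 ± 0.35 (adjusted p = 0.000166). Tenascin C, Tnc, differed by 0.55 ± 0.37 from sham and −1.37 ± 0.37 from TAC vehicle hearts, Thbs1 by 0.19 ± 0.26 and −1.59 ± 0.26, and the lysyl oxidase Lox by 0.92 ± 0.38 and −1.41 ± 0.38. Aspn, a small proteoglycan, missed the threshold against sham narrowly (0.71 ± 0.24, adjusted p = 0.0574). A missed threshold does not show that these genes were at the sham level.

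Of 22 collagen chains 6 were higher and 0 lower in TAC JQ1 hearts, against 15 and 0 in TAC vehicle hearts, and 8 were no longer higher. Col8a1, a short-chain collagen, was at 10.02, 9.68 and 9.61 in TAC JQ1 hearts, 11.12, 11.22 and 11.27 in TAC vehicle hearts and 8.46, 8.92 and 8.73 in sham hearts. No array of any group lay inside the range of another, and the difference from sham was 1.06 ± 0.16 (adjusted p = 0.000118). Of the fibrillar chains Col3a1 (0.69 ± 0.18, adjusted p = 0.0156) and Col1a2 (0.53 ± 0.13, adjusted p = 0.0103) were called and Col1a1 (0.39 ± 0.15, adjusted p = 0.0998) was not. The basement membrane chains Col4a1 (0.32 ± 0.08) and Col4a2 (0.41 ± 0.09) were called. Without TAC JQ1 replicate 2 the collagens called came to 3, and Col1a2 and Col3a1 were among the calls lost (adjusted p = 0.0535 and 0.0663). The call of Col3a1 was also lost without sham replicate 3 and that of Col4a1 without TAC JQ1 replicate 1.

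Among 25 genes of TGF-beta signalling, a main profibrotic pathway, 4 were higher and 1 was lower than sham in TAC JQ1 hearts. In TAC vehicle hearts 16 were higher and 2 lower. Over all genes 5.01% were higher and 5.51% lower in TAC JQ1 hearts, and 7.80% and 7.73% in TAC vehicle hearts. The ligand Tgfb1 (0.43 ± 0.09), the secreted Fstl1 (0.95 ± 0.13) and the decoy receptor Bambi (0.58 ± 0.13) were still higher, and the signal transducer Smad3 (−0.34 ± 0.07) was newly lower. The ligand Tgfb2 lay at 7.96, 8.05 and 7.77 in TAC JQ1 hearts, 8.94, 9.06 and 9.33 in TAC vehicle hearts and 7.69, 7.63 and 7.86 in sham hearts. TAC JQ1 and sham arrays overlapped (0.20 ± 0.16, adjusted p = 0.504) and every TAC vehicle array lay above them. The target gene Ccn2 was not called against sham either (0.36 ± 0.19, adjusted p = 0.252). Without TAC JQ1 replicate 2 the pathway genes called higher came to 2, and the call of Bambi was lost.

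Of 18 fibroblast markers 3 were higher and 1 lower in TAC JQ1 hearts, where 5.01% and 5.51% of all genes were. In TAC vehicle hearts 10 of the markers were higher and 1 lower. Their summed signal was 14.09 to 14.23 in TAC JQ1 hearts, 14.42 to 14.53 in TAC vehicle hearts and 13.97 to 14.02 in sham hearts, and its part in the matrix results was not tested. Meox1, a transcription factor of activated fibroblasts, lay at 7.77, 7.54 and 7.68 in TAC JQ1 hearts, 9.15, 9.02 and 9.57 in TAC vehicle hearts and 7.58, 7.82 and 7.71 in sham hearts. TAC JQ1 and sham arrays were intermingled, a difference of −0.04 ± 0.21, and TAC vehicle was 1.55 ± 0.21 above sham. Mfap5, a microfibril glycoprotein (0.92 ± 0.18), Pi16, a marker of adventitial fibroblasts (0.72 ± 0.12), and Dpt, a matrix protein (0.42 ± 0.12), were still higher. The call of Dpt was lost without TAC JQ1 replicate 1 or 2 or sham replicate 1 or 2.

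**Figure D2:**
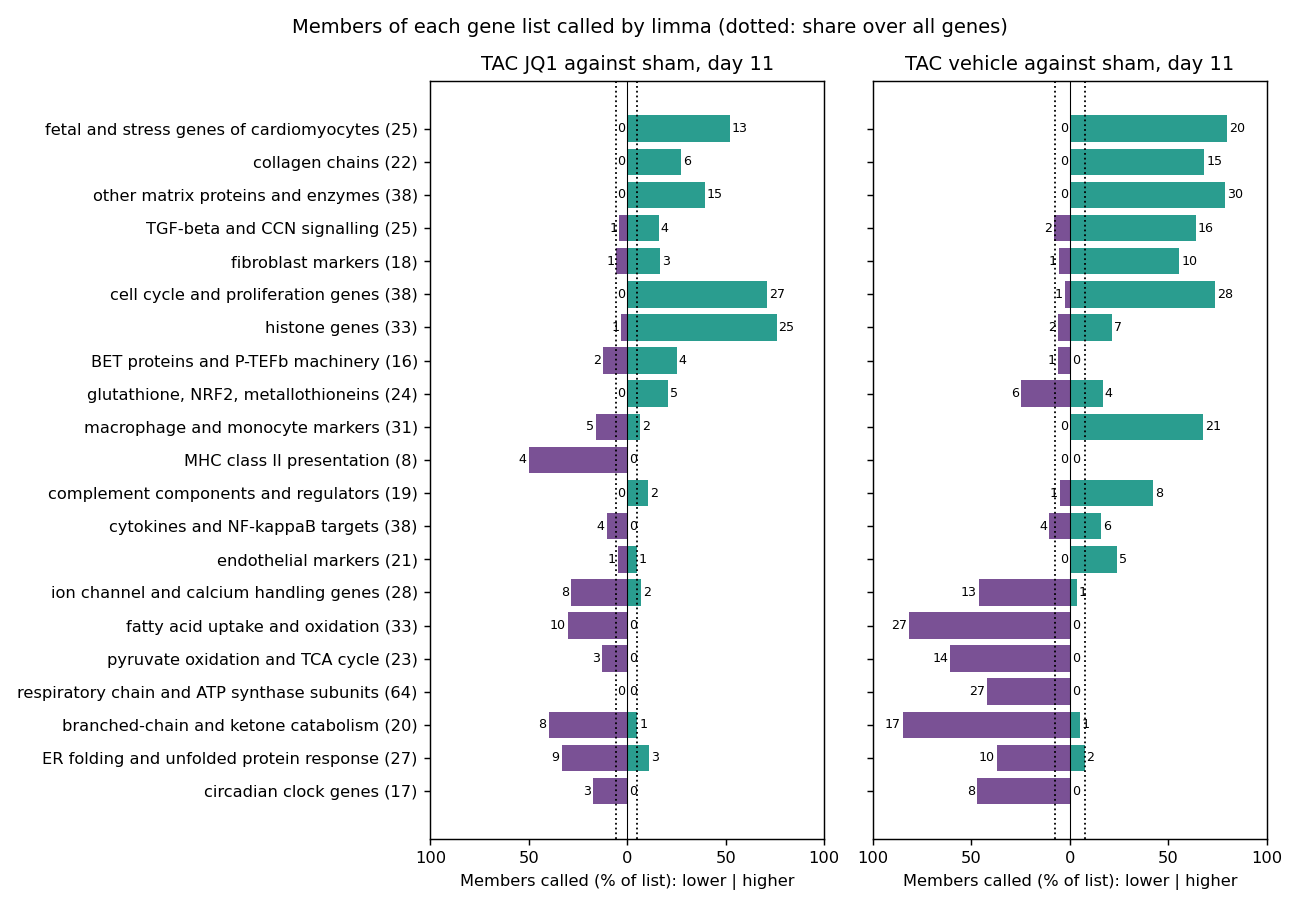
Share of each gene list's members called higher or lower than in sham hearts at day 11, in percent, for TAC JQ1 (left panel) and TAC vehicle (right panel); dotted lines mark the share of all genes called. Proliferation genes have long bars in both panels (27 and 28 of 38 higher), histone genes a long bar for TAC JQ1 (25 of 33, against 7 for TAC vehicle), and fuel lists longer bars for TAC vehicle.

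No proliferation gene was called between the treatments. Of 38 genes of DNA replication and mitosis 27 were higher and 0 lower than sham in TAC JQ1 hearts, where 5.01% of all genes were higher, against 28 and 1 in TAC vehicle hearts, with medians of 0.52 and 0.58. By class 25 were still higher. Between TAC JQ1 and TAC vehicle hearts 0 were called by limma, and 3 had an unadjusted p under 0.05. Mki67, a protein that coats the chromosomes of dividing cells, lay at 8.44, 8.05 and 8.23 in TAC JQ1 hearts, 8.34, 8.21 and 8.36 in TAC vehicle hearts and 6.60, 6.71 and 6.89 in sham hearts. The TAC JQ1 and TAC vehicle arrays were intermingled and all above sham, at differences of 1.51 ± 0.21 (2.84-fold, adjusted p = 7.51e-05) and 1.57 ± 0.21. The difference between the treatments was −0.06 ± 0.21 (adjusted p = 0.875).

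Ccna2, a cyclin of S phase and mitosis, was at 8.53, 7.98 and 8.19 in TAC JQ1 hearts, 8.39, 8.06 and 8.36 in TAC vehicle hearts and 6.80, 6.49 and 6.69 in sham hearts. It had the same pattern, 1.57 ± 0.26 above sham for TAC JQ1 (adjusted p = 0.000364). Top2a, which untangles replicated DNA, was higher than sham by 1.50 ± 0.24 in TAC JQ1 hearts and 1.43 ± 0.24 in TAC vehicle hearts. Anln, Kif23 and Ect2, which act in cytokinesis, were above sham by 1.42 ± 0.20, 1.42 ± 0.17 and 1.05 ± 0.17 in TAC JQ1 hearts. Among members that were not called, picked out after their values were seen, the G1 cyclins Ccnd1 and Ccne1 differed from sham by 0.26 and 0.14 and the replication licensing genes Mcm2 and Mcm5 by 0.09 and 0.21. Not all uncalled members were above sham, as the lowest difference of the list, also not called, was −0.56. The arrays do not say which cells of the heart held these transcripts.

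Histone genes were higher in TAC JQ1 than in sham hearts in 25 of 33 cases and lower in 1, against 7 and 2 in TAC vehicle hearts, with medians of 0.59 and 0.20. Directly against TAC vehicle hearts 18 were higher and 0 were lower, so that 16 were newly higher and 7 still higher. H2ac4, a gene for histone H2A, had levels of 6.35, 5.70 and 5.45 in TAC JQ1 hearts, 5.33, 4.75 and 5.16 in TAC vehicle hearts and 4.17, 3.70 and 4.06 in sham hearts. Every TAC JQ1 array exceeded every TAC vehicle array, and these exceeded sham. The difference from sham was 1.85 ± 0.26 (3.61-fold, adjusted p = 7.09e-05), and that from TAC vehicle hearts just missed the threshold (0.75 ± 0.26, adjusted p = 0.0534). The lower quartile of all probe sets was 5.76 to 5.82 in the sham arrays, so H2ac4 was dim there. H2ax, the variant phosphorylated at broken DNA, lay at 8.74, 8.50 and 8.32 in TAC JQ1 hearts, 7.66, 7.59 and 7.67 in TAC vehicle hearts and 7.34, 7.54 and 7.45 in sham hearts. It was newly higher (1.08 ± 0.10, adjusted p = 5.69e-07), as were the linker histone H1f3 (1.02 ± 0.11) and the core histones H4c6 (1.04 ± 0.19), H3c4 (1.15 ± 0.26) and H2bc4 (0.59 ± 0.09). H3c15 was newly higher by 1.39 ± 0.33, a call lost without TAC JQ1 replicate 1 (1.16, adjusted p = 0.0556). Histone genes include near-identical copies, so a probe set can collect signal from several of them and the counts are not counts of independent genes.

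Promoters of members of both lists, and of Hexim1, a newly higher gene described next, are shown because these lists had the largest shares of members called higher, 25 of 33 and 27 of 38. The windows hold 300 bases, most of them upstream of the annotated start, from RefSeq for GRCm38.p6, 5′ to 3′ on the strand of the gene. Capitals mark CCAAT or its reverse complement ATTGG, and TATAAA or its reverse complement TTTATA. The windows are H2ac4 at chr13:23750838-23751137, plus strand, Mki67 at chr7:135716330-135716629, minus strand, Top2a at chr11:99024140-99024439, minus strand, and Hexim1 at chr11:103116075-103116374, plus strand.
H2ac4: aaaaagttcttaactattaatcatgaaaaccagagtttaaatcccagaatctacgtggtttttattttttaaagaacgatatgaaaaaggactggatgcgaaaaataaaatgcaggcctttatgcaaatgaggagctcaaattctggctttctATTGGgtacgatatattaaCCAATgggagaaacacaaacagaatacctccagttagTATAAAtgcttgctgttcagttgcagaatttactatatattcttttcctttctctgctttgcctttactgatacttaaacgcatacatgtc
Mki67: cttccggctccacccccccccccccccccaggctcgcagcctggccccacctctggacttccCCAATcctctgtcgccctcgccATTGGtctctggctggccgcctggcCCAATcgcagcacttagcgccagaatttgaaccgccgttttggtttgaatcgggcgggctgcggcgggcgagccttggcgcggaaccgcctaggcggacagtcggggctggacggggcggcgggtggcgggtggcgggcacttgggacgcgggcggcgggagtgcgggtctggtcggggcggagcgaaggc
Top2a: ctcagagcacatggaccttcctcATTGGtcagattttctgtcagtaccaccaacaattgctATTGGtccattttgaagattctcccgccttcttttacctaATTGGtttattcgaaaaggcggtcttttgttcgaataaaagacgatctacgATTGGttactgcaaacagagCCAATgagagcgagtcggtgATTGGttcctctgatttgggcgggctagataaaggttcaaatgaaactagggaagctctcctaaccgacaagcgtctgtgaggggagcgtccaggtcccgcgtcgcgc
Hexim1: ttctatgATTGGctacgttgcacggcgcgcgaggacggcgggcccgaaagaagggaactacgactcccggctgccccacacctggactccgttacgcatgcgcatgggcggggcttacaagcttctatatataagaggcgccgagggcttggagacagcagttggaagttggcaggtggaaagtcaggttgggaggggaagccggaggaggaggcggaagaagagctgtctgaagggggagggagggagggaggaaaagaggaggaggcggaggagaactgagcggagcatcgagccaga

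CCAAT occurred on either strand in 23 of 28 histone windows (82.1%) and in 26 of 33 proliferation windows (78.8%), against 37.4% of 32851 windows of all genes. TATAAA occurred in 14 of 28 histone windows (50%) and in 0 of 33 proliferation windows, against 13.6% of all windows. The H2ac4 window holds 2 CCAAT and 1 TATAAA, the Mki67 window 3 CCAAT, the Top2a window 6 and the Hexim1 window 1. Of the other lists searched, CCAAT was in 5 of 6 windows of MHC class II genes (83.3%) in 34.5% of windows of matrix genes and in 44.4% of those of fetal and stress genes. TATAAA was in 0 of the 6 MHC class II windows, 31% of matrix windows and 22.2% of fetal and stress windows. A match is a description of the letters in a window and not a site.

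**Figure D3:**
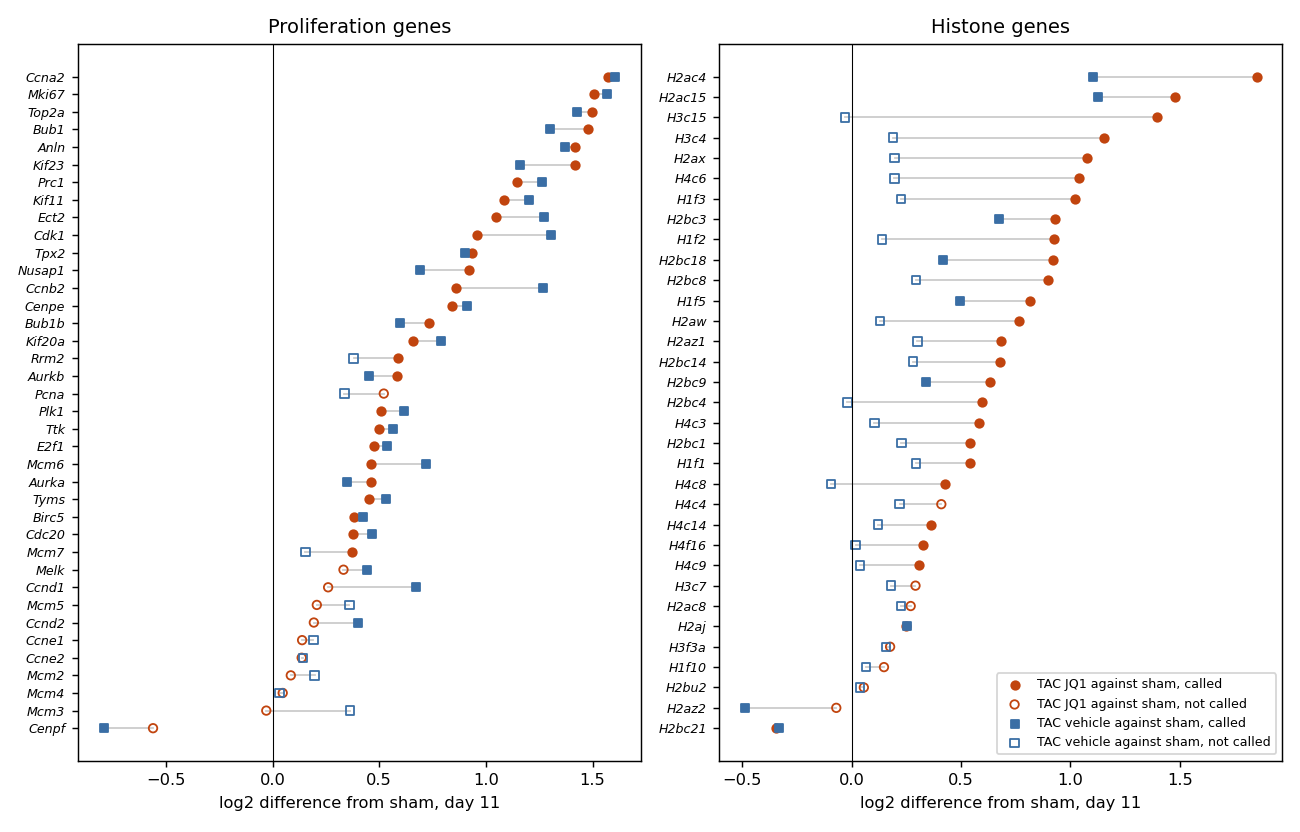
Log2 difference from sham at day 11 for each proliferation gene and each histone gene, for TAC JQ1 (circles) and TAC vehicle hearts (squares), filled where called. Many proliferation genes have similar differences for both treatments, as Mki67 at 1.51 for TAC JQ1 and 1.57 for TAC vehicle, whereas many histone genes lie higher for TAC JQ1, as H2ax at 1.08 and 0.20.

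Genes of the BET and P-TEFb machinery itself were among the newly changed. Of 16 such genes 4 were higher and 2 lower than sham in TAC JQ1 hearts, against 0 and 1 in TAC vehicle hearts. Hexim1, an inhibitor of P-TEFb that is widely used as a marker of BET inhibition, lay at 9.39, 9.30 and 9.10 in TAC JQ1 hearts, 7.50, 7.44 and 7.55 in TAC vehicle hearts and 7.59, 7.32 and 7.40 in sham hearts. TAC vehicle and sham arrays overlapped and every TAC JQ1 array stood above them, by 1.83 ± 0.12 over sham (3.55-fold, adjusted p = 3.08e-09). The BET gene Brd2 was newly higher (0.67 ± 0.08), as was Polr2a (0.93 ± 0.12), the largest subunit of RNA polymerase II. Zmynd8, a chromatin reader with a bromodomain, was newly lower, at 7.96, 8.15 and 8.16 in TAC JQ1 hearts, 8.85, 8.74 and 8.74 in TAC vehicle hearts and 9.03, 8.96 and 9.03 in sham hearts. Its TAC JQ1 arrays were below all others (−0.92 ± 0.09 from sham, adjusted p = 1.26e-06). Of 13 genes of the Myc network 0 were called against sham by limma and 3 had an unadjusted p under 0.05, and Myc itself differed by 0.03 ± 0.16.

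Other newly higher genes came from several functions. Zswim6, a zinc finger gene, lay at 10.15, 10.19 and 9.92 in TAC JQ1 hearts, 8.95, 8.76 and 8.89 in TAC vehicle hearts and 8.62, 8.60 and 8.73 in sham hearts. All TAC JQ1 arrays stood above the rest (1.44 ± 0.10 from sham, adjusted p = 3.08e-09). Pnmt, the enzyme that makes adrenaline from noradrenaline, was at 8.68, 8.23 and 7.95 in TAC JQ1 hearts, 6.83, 6.77 and 6.44 in TAC vehicle hearts and 7.19, 7.15 and 7.13 in sham hearts (1.13 ± 0.23 from sham, adjusted p = 0.00168). Gclc, which catalyses the rate-limiting step of glutathione synthesis, was higher by 1.01 ± 0.10, the kainate receptor partner Neto2 by 1.18 ± 0.16 and the imprinted, retrotransposon-derived Peg10 by 1.07 ± 0.16. The imprinted Peg3 was called at 1.07 ± 0.35 (adjusted p = 0.0488) and lost its call in 11 alternatives. Of 24 genes of the NRF2 response to oxidants and metals 5 were higher and 0 lower. By class 2 were newly higher and 3 still higher. Among those also higher in TAC vehicle hearts were the peroxidases Gpx1 (0.63 ± 0.11) and Gpx3 (0.57 ± 0.13). Of 26 immediate early genes 4 were higher and 0 lower, and the AP-1 subunits Jun (0.74 ± 0.15) and Jund (0.51 ± 0.10) were newly higher. Without TAC JQ1 replicate 2 the immediate early genes higher came to 2.

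Macrophage and monocyte genes included several that turned over. Of 31 markers 2 were higher and 5 lower than sham in TAC JQ1 hearts, where 5.01% and 5.51% of all genes were. In TAC vehicle hearts 21 were higher and 0 lower. The medians were −0.19 in TAC JQ1 hearts and 0.60 in TAC vehicle hearts. By class 14 were no longer higher, 4 turned over, 2 were still higher and 1 was newly lower. Clec4a1, a lectin of myeloid cells, lay at 5.28, 5.70 and 5.81 in TAC JQ1 hearts, 8.28, 7.56 and 7.67 in TAC vehicle hearts and 7.14, 7.03 and 7.15 in sham hearts. In TAC JQ1 hearts it was dim, as the lower quartile of all probe sets was 5.75 to 5.80 there. TAC JQ1 arrays were below every sham array and TAC vehicle arrays above, at differences of −1.51 ± 0.24 (adjusted p = 0.000218) and 0.73 ± 0.24 (adjusted p = 0.039). The lectin receptor Clec12a (−1.19 ± 0.27 for TAC JQ1, 0.83 ± 0.27 for TAC vehicle), the Toll-like receptor homologue Cd180 (−0.95 ± 0.17 and 0.96 ± 0.17) and the Fc receptor Fcgr1 (−0.45 ± 0.12 and 0.62 ± 0.12) turned over in the same way. Outside this list so did Sting1, an adaptor of DNA sensing (−0.85 ± 0.18 and 0.61 ± 0.18). The call of Fcgr1 was lost without TAC JQ1 replicate 2 or sham replicate 2.

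Not all macrophage markers were low. The complement component C1qa was higher than sham by 0.38 ± 0.12 in TAC JQ1 hearts (adjusted p = 0.0438) and 0.54 ± 0.12 in TAC vehicle hearts, a call lost in 7 alternatives. The general markers Cd68, Csf1r and Adgre1, looked at after their values were known, differed from sham by −0.03, 0.14 and 0.01 in TAC JQ1 hearts and were not called. The monocyte receptor Ccr2 lay at 5.37, 5.64 and 5.78 in TAC JQ1 hearts, 7.61, 7.11 and 7.28 in TAC vehicle hearts and 6.30, 6.25 and 6.42 in sham hearts. Its TAC JQ1 arrays were below every sham array, but the difference of −0.73 ± 0.34 was not called (adjusted p = 0.203). The summed signal of the 31 markers, in log2, was 13.31 to 13.46 in TAC JQ1 hearts, 13.87 to 14.06 in TAC vehicle hearts and 13.26 to 13.32 in sham hearts, which put TAC JQ1 hearts within or above the sham range. The mean centred level of the markers put TAC JQ1 hearts the other way, at −0.506 to −0.417, against 0.284 to 0.516 in TAC vehicle hearts and −0.265 to −0.216 in sham hearts. In pieces of whole heart, fewer cells of a type and less RNA per cell cannot be told apart. The number of markers lower than sham was 3 without TAC JQ1 replicate 2 or sham replicate 2, and 11 in the fit to the 2 groups alone.

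Genes of MHC class II, which present peptides to helper T cells, were newly lower in TAC JQ1 hearts in 4 of 8 cases. In TAC JQ1 hearts 4 were lower than sham and 0 higher, with a median of −0.84. In TAC vehicle hearts 0 were called by limma in either direction, 0 also without adjustment at a p under 0.05, with a median of 0.14, and 6 of the 8 were lower in TAC JQ1 than in TAC vehicle hearts. H2-Eb1, a beta chain, lay at 8.65, 8.46 and 8.24 in TAC JQ1 hearts, 10.22, 9.84 and 9.62 in TAC vehicle hearts and 9.68, 9.45 and 9.42 in sham hearts. TAC JQ1 arrays were below all others, at −1.07 ± 0.22 from sham (adjusted p = 0.00226), and TAC vehicle arrays overlapped sham. The peptide loading gene H2-DMa (−0.61 ± 0.14, adjusted p = 0.0043), the alpha chain H2-Aa (−1.24 ± 0.38, adjusted p = 0.0384) and the invariant chain Cd74 (−1.06 ± 0.31, adjusted p = 0.0306) were lower as well. The calls of H2-Aa and Cd74 were lost without TAC JQ1 replicate 2 or 3 or any single sham array, which left 2 members called, and with the trend and robust options of eBayes, and that of H2-Aa also with the replicate number as a block (adjusted p = 0.0506). The mean centred level of the macrophage markers was −0.450 in TAC JQ1 hearts, 0.397 in TAC vehicle hearts and −0.234 in sham hearts, and its part in the result was not tested.

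Of 13 neutrophil and 14 lymphocyte markers 0 were called against sham in TAC JQ1 hearts by limma, and 0 had an unadjusted p under 0.05. Of 38 cytokines and related genes 4 were lower and 0 higher in TAC JQ1 hearts, where 5.51% of all genes were lower. Ccl11, a chemokine for eosinophils, was still lower (−0.96 ± 0.15 in TAC JQ1 hearts, −0.75 ± 0.15 in TAC vehicle hearts), as were Cxcl14 (−0.69 ± 0.10 and −0.38 ± 0.10) and Il15 (−0.47 ± 0.11 and −1.17 ± 0.11). The alarmin Il33 was newly lower, at 6.09, 5.99 and 6.20 in TAC JQ1 hearts, 6.85, 6.97 and 6.73 in TAC vehicle hearts and 6.88, 6.55 and 6.92 in sham hearts. No TAC JQ1 array reached the other groups (−0.69 ± 0.17 from sham, adjusted p = 0.00932). Il6 was not called against sham in TAC JQ1 hearts (0.32 ± 0.20). Of 20 interferon-stimulated genes 2 were higher and 0 lower in TAC JQ1 hearts, where 5.01% of all genes were higher, against 6 and 0 in TAC vehicle hearts. The 2 were Rsad2 (0.92 ± 0.22) and Stat2 (0.41 ± 0.11), and the call of Stat2 was lost without TAC JQ1 replicate 1 or 2 or sham replicate 2. The mean centred level of the list was −0.068, 0.331 and −0.12 in TAC JQ1 replicates 1, 2 and 3, so replicate 2 stood apart. It was 0.223 to 0.395 in TAC vehicle hearts and −0.276 to −0.123 in sham hearts.

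Some genes for burning fuel were higher in TAC JQ1 than in TAC vehicle hearts, and some were still below sham. Of 33 genes of fatty acid uptake and oxidation 10 were lower and 0 higher in TAC JQ1 hearts, where 5.51% of all genes were lower, against 27 and 0 in TAC vehicle hearts, with medians of −0.15 and −0.43. Those 10 were still lower, 15 others were no longer lower, and 19 of the 33 were higher in TAC JQ1 than in TAC vehicle hearts. Ucp3, a mitochondrial carrier induced by fatty acids, lay at 8.31, 7.79 and 8.10 in TAC JQ1 hearts, 8.60, 8.22 and 7.82 in TAC vehicle hearts and 9.66, 9.53 and 9.11 in sham hearts. TAC JQ1 and TAC vehicle arrays overlapped below sham, at −1.37 ± 0.30 (adjusted p = 0.004) and −1.22 ± 0.30. Ppara, the nuclear receptor that drives these genes, differed from sham by −0.65 ± 0.10 in TAC JQ1 hearts and −0.71 ± 0.10 in TAC vehicle hearts. Its coactivator Ppargc1a lay at 10.91, 11.06 and 10.95 in TAC JQ1 hearts, 10.59, 10.52 and 10.54 in TAC vehicle hearts and 11.25, 11.25 and 11.30 in sham hearts. It stood between the other groups without overlap (−0.29 ± 0.07 from sham, adjusted p = 0.0119), a call lost without TAC JQ1 replicate 1 (−0.26, adjusted p = 0.0712). The fatty acid transporter Slc27a1 showed the same order (−0.62 ± 0.11 and −1.08 ± 0.11). Without TAC JQ1 replicate 1 the number of these genes called lower was 6.

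Of 20 genes of branched-chain amino acid and ketone breakdown 8 were lower and 1 higher in TAC JQ1 hearts, against 17 and 1 in TAC vehicle hearts. The aminotransferase Bcat2, the first step, was at 9.91, 9.95 and 9.82 in TAC JQ1 hearts, 9.67, 9.82 and 9.79 in TAC vehicle hearts and 10.58, 10.56 and 10.57 in sham hearts. Both TAC groups lay below sham, at −0.68 ± 0.09 (adjusted p = 2.66e-05) and −0.81 ± 0.09. Ppm1k, the phosphatase that activates the branched-chain ketoacid dehydrogenase, was −0.46 ± 0.11 from sham in TAC JQ1 hearts and −1.22 ± 0.11 in TAC vehicle hearts. Of 23 tricarboxylic acid cycle genes 3 were lower in TAC JQ1 hearts, where 5.51% of all genes were, against 14 in TAC vehicle hearts. They were Suclg2 (−0.28 ± 0.08), Sdhc (−0.22 ± 0.06) and Fh1 (−0.21 ± 0.06), whose calls were lost in 5, 7 and 9 alternatives. Of 64 respiratory chain subunits 0 were called in TAC JQ1 hearts by limma and 8 had an unadjusted p under 0.05, while 27 were lower in TAC vehicle hearts. The branched-chain count was 5 without TAC JQ1 replicate 2 and 4 without sham replicate 1.

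Ion channel and calcium handling genes were lower in 8 of 28 cases and higher in 2 in TAC JQ1 hearts, against 13 and 1 in TAC vehicle hearts. By class 7 were still lower and 5 no longer lower. Kcnv2, a potassium channel subunit, lay at 6.81, 6.92 and 6.75 in TAC JQ1 hearts, 7.01, 7.01 and 6.80 in TAC vehicle hearts and 8.23, 8.16 and 8.14 in sham hearts. The TAC groups overlapped below sham, at −1.34 ± 0.12 (adjusted p = 3.03e-07) and −1.23 ± 0.12. Kcnj5, a subunit of the acetylcholine-activated potassium channel, was further below sham in TAC JQ1 hearts (−1.03 ± 0.07) than in TAC vehicle hearts (−0.73 ± 0.07), and the difference between them was called (adjusted p = 0.00535). Its partner subunit Kcnj3 lay at 9.36, 9.72 and 9.63 in TAC JQ1 hearts, 8.72, 8.66 and 8.46 in TAC vehicle hearts and 9.96, 9.68 and 9.88 in sham hearts. It was no longer lower, with TAC JQ1 arrays overlapping sham (−0.27 ± 0.12, adjusted p = 0.174). The hERG-type channel Kcnh2 (−0.57 ± 0.08) and the ATP-sensitive Kcnj11 (−0.54 ± 0.07) were still lower. The number lower was 4 to 5 without TAC JQ1 replicate 1 or 2 or sham replicate 1 or 2.

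Of the 10 genes with the largest falls below sham among those whose arrays did not overlap, most were also below sham in TAC vehicle hearts. Retnla, a secreted product of alternatively activated macrophages, was at 4.14, 4.32 and 4.24 in TAC JQ1 hearts, 4.52, 4.70 and 4.32 in TAC vehicle hearts and 6.58, 5.80 and 6.30 in sham hearts. Both TAC groups lay below sham, at −2.00 ± 0.25 for TAC JQ1 (adjusted p = 1.94e-05) and −1.71 ± 0.25 for TAC vehicle. The lower quartile of all probe sets was 5.74 to 5.82 in the TAC arrays, so Retnla was dim in both groups. The opioid precursor Penk (−1.66 ± 0.22 and −1.90 ± 0.22), the galectin Lgals4 (−1.49 ± 0.22 and −1.72 ± 0.22), the ADP-ribosyltransferase Art4 (−1.41 ± 0.13 and −0.66 ± 0.13) and the growth factor Fgf16 (−1.37 ± 0.20 and −0.94 ± 0.20) were still lower. Itgb6, an integrin that activates latent TGF-beta, was newly lower instead, at 7.52, 7.22 and 7.24 in TAC JQ1 hearts, 9.21, 8.93 and 9.37 in TAC vehicle hearts and 9.02, 9.17 and 9.43 in sham hearts. TAC vehicle and sham arrays overlapped and every TAC JQ1 array lay below them, by −1.88 ± 0.20 from sham (adjusted p = 4.31e-06).

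Rrad, a small GTPase that restrains the L-type calcium channel, was newly lower, at 9.91, 9.76 and 9.67 in TAC JQ1 hearts, 10.96, 10.86 and 11.11 in TAC vehicle hearts and 10.78, 10.83 and 10.92 in sham hearts. The TAC JQ1 arrays lay below all others (−1.07 ± 0.12 from sham, adjusted p = 8.6e-06). Sh3rf2, an adaptor with SH3 domains (−1.06 ± 0.09), and C1qtnf9, a secreted relative of adiponectin (−0.98 ± 0.18), were newly lower too. So were the growth factor Fgf2 (−0.71 ± 0.12), the binding protein Igfbp3 (−0.62 ± 0.11) and Npr3, the clearance receptor for natriuretic peptides (−0.59 ± 0.12). The vessel-stabilising Angpt1 (−1.12 ± 0.18 in TAC JQ1 hearts, −1.58 ± 0.18 in TAC vehicle hearts), Corin, the protease that activates the atrial natriuretic peptide (−0.60 ± 0.11 and −0.61 ± 0.11), and the alpha-adrenergic receptor Adra1b (−0.44 ± 0.08 and −0.59 ± 0.08) were still lower. Of 21 endothelial markers 1 was higher and 1 lower in TAC JQ1 hearts, shares near the 5.01% and 5.51% of all genes, namely Cldn5 (0.48 ± 0.14) and Vwf (−0.27 ± 0.09), whose calls were lost in 4 and 9 alternatives.

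Among the largest of the genes no longer lower, Mylk4, a kinase of the myosin light chain kinase family, differed from sham by −0.30 ± 0.26 in TAC JQ1 hearts (adjusted p = 0.531) and −1.45 ± 0.26 in TAC vehicle hearts. The thioesterase Acot1 (−0.25 ± 0.23 from sham, 0.77 ± 0.23 from TAC vehicle hearts), the amylase Amy1 (0.08 ± 0.19 and 1.12 ± 0.19) and Hnmt, which inactivates histamine (−0.37 ± 0.14 and 0.74 ± 0.14), were of the same class. So was Herpud1, a factor of protein degradation at the endoplasmic reticulum, which missed the threshold against sham by little (−0.40 ± 0.14, adjusted p = 0.0696). On the higher side the acute phase inhibitor Serpina3n (0.47 ± 0.35 from sham, −1.36 ± 0.35 from TAC vehicle hearts) and the fibrinogen-like Fgl2 (0.46 ± 0.18 and −1.30 ± 0.18) were no longer higher.

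Protein folding genes need the sham level of day 11 beside them. Of 27 genes of the unfolded protein response 9 were lower and 3 higher in TAC JQ1 hearts, against 10 and 2 in TAC vehicle hearts. The chaperone Hspa5 lay at 11.81, 11.80 and 11.69 in TAC JQ1 hearts, 11.69, 11.86 and 11.68 in TAC vehicle hearts and 12.08, 12.28 and 12.14 in sham hearts. Both TAC groups were below sham (−0.40 ± 0.08 for TAC JQ1, adjusted p = 0.00124). Sdf2l1, a cofactor of that chaperone (−0.68 ± 0.13), Chac1, which degrades glutathione (−0.63 ± 0.12), and the transcription factor Xbp1 (−0.39 ± 0.07) were still lower. The mean centred level of the list at day 11 was −0.015 in TAC JQ1 hearts, −0.040 in TAC vehicle hearts and 0.138 in sham hearts, while sham hearts were at −0.100 at day 3 and −0.036 at day 28. The part of this sham level in the calls was not tested. Of 17 clock genes 3 were lower in TAC JQ1 hearts, against 8 in TAC vehicle hearts. Over all genes 5.51% and 7.73% were lower in these comparisons. The 3 were the repressors Nr1d1 (−0.66 ± 0.14) and Nr1d2 (−0.34 ± 0.09) and the period gene Per3 (−0.37 ± 0.10). The calls of Nr1d2 and Per3 were lost without TAC JQ1 replicate 1, and that of Per3 also without TAC JQ1 replicate 2 or sham replicate 1 or 3. Without TAC JQ1 replicate 3 the folding genes lower came to 5 and the higher to 5, and without any other single array of TAC JQ1 or sham hearts the higher came to 0 or 1. The clock genes lower came to 1 without TAC JQ1 replicate 1.

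**Figure D4:**
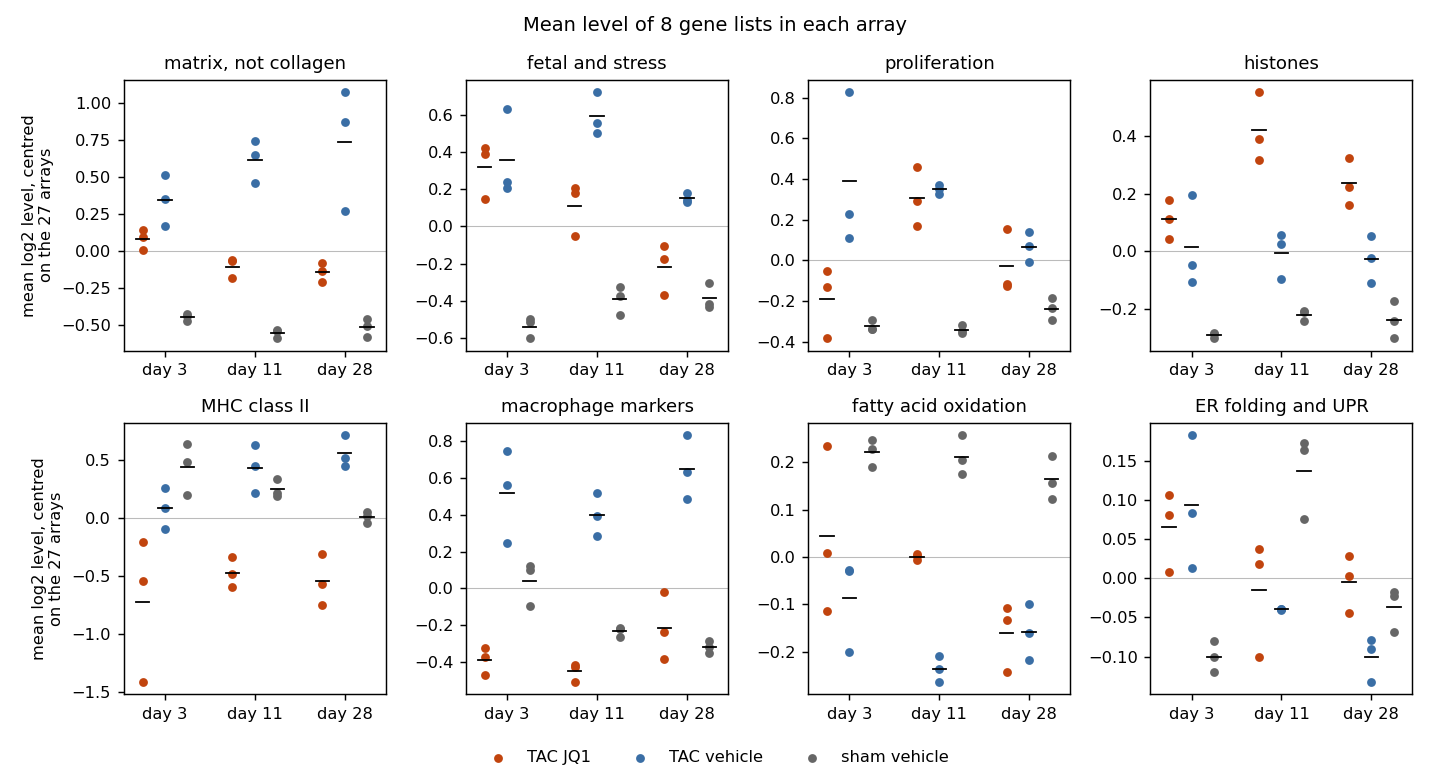
Mean centred log2 level (vertical axes) of 8 gene lists in each array at days 3, 11 and 28, for TAC JQ1, TAC vehicle and sham hearts. Proliferation genes in TAC JQ1 hearts average −0.187, 0.307 and −0.029 at days 3, 11 and 28, and histone genes 0.111, 0.421 and 0.237.

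The comparison of TAC JQ1 with sham gave 3511 genes called at day 3 (17.6%, with 6.94% of genes higher and 10.7% lower) and 3976 at day 28 (19.9%, with 7.36% higher and 12.6% lower). A moderated F test of limma found 1137 genes whose difference from sham depended on the day (5.70%). Day 11 differed from day 3 in 13 genes (0.0652%), 6 higher and 7 lower (0.0301% and 0.0351%). It differed from day 28 in 409 genes (2.05%), 323 higher and 86 lower (1.62% and 0.431%). Each comparison was adjusted on its own, so an unadjusted p called against day 28 can be missed against day 3. These counts therefore do not show that day 11 was closer to day 3 than to day 28.

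Proliferation genes gave other counts on the other days, 3 higher and 1 lower of 38 at day 3 and 5 higher and 2 lower at day 28, and the F test was called for 4 of them. On this list the mean centred level at days 3, 11 and 28 was −0.187, 0.307 and −0.029 in TAC JQ1 hearts, 0.390, 0.349 and 0.067 in TAC vehicle hearts and −0.322, −0.339 and −0.236 in sham hearts. The difference of Mki67 from sham was larger at day 11 than at day 28 by 1.21 ± 0.30 (adjusted p = 0.0374), and exceeded that at day 3 by 1.32 ± 0.30, which was not called (adjusted p = 0.077). Ect2 (0.91 ± 0.23) and H2ac4 (1.40 ± 0.37) were likewise further above sham at day 11 than at day 28. H1f3 was further above sham at day 11 than on either other day, by 0.84 ± 0.16 over day 3 and 0.68 ± 0.16 over day 28.

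Thbs1 was 2.36 above sham at day 3 and 0.19 at day 11, a difference between days of −2.17 ± 0.36 (adjusted p = 0.0245). Rsad2, an antiviral interferon target, differed from sham by −1.03 at day 3 and 0.92 at day 11, a difference of 1.95 ± 0.31 (adjusted p = 0.0163). Several genes with the smallest p between days were low at day 28. The transcription factor Nfic, the basement membrane proteoglycan Hspg2, the cytolinker Plec and the muscle kinase Speg differed from sham by −0.40, 0.14, −0.02 and −0.44 at day 11 and by −1.23, −0.89, −1.03 and −1.33 at day 28. Ankrd1 (0.57 at day 11, 0.13 at day 28), Flnc (0.46 and −0.75) and Col4a2 (0.41 and −0.35) also differed between these days. Acta1, Nppa, Postn and Hexim1 were not called between day 11 and either other day. A missed call does not show that a difference was stable. Acta1 was 1.53 above sham at day 11 and 0.33 at day 28, which was not called between these days (adjusted p = 0.148). The difference of Xbp1 at day 11 minus that at day 3 was −0.57 ± 0.10, where sham hearts averaged 10.33 at day 3 and 10.73 at day 11.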

How the data were processed

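RNA of mouse hearts was measured on Affymetrix arrays, 27 in 9 groups of 3. The authors deposited log2 signal per probe set, and the sources used here do not name the normalization; limma is named in the submitters' processing notes, without a version. Values ran from 1.67 to 14.21 and array medians from 6.954 to 7.043. Of 34760 probe sets 21640 had 1 gene in the platform annotation, 1321 had several and 11799 none, and the last 2 kinds were left out of gene-level tests.

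A model of 9 group means was fitted to 19937 genes in R 4.3.3 (limma 3.58.1, moderated by eBayes), with Benjamini-Hochberg adjustment over all genes. Contrasts were TAC JQ1 minus sham, TAC vehicle minus sham and TAC JQ1 minus TAC vehicle at day 11, TAC JQ1 minus sham at days 3 and 28, and differences between days. The fit was also run on simulated data with independent noise per gene and array and planted differences. Those data held no deviation shared by the genes of an array, so they cannot show how such a deviation affects the calls. The alternatives were other normalizations, filters, probe set rules, variance models, array weights, a replicate block, fits to fewer groups, other thresholds and leaving out each array of day 11.

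The comparison and the 38 gene lists (820 distinct genes found) were chosen with earlier results of these data known. Genes were named by rule: a list of genes of interest, the 10 largest differences per direction, up to 4 members per list by p, the 10 largest newly changed and no longer changed per direction, the 6 largest turned over, and the 10 smallest p between days. Genes named outside this rule are stated where they appear. A list's mean centred level is the mean over its genes of the log2 level minus the gene's mean over all arrays. A summed signal is log2 of the sum of the linear signals.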

Additional observations from a re-analysis of the deposited data

Results flagged for a closer look

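For 46 of the genes named, the difference of TAC JQ1 from sham hearts depended on the day, by the moderated F test of limma at an adjusted p under 0.05 over all genes. Of these, 4 had a called difference between day 11 and day 3 and 22 between day 11 and day 28, with each comparison adjusted separately. The adjusted p of the F test is given for each of the 46 genes. The 186 genes named include some picked for the smallest p of this F test. The count of 46 was thus in part set by the test itself and is no result for the named genes as a group. Over all genes the F test called 5.70%.

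Among muscle and load genes the adjusted p was 0.00603 for Ankrd1, 0.000117 for Flnc, 0.00588 for Hspb7, 0.00142 for Mef2d, 0.0133 for Myh7, 0.0459 for Rrad, 0.0353 for Ryr2, 0.0169 for Kcnh2 and 4.7e-05 for Speg. The difference of Flnc from sham was 1.03 at day 3, 0.46 at day 11 and −0.75 at day 28.

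Among matrix, fibroblast and growth factor genes the adjusted p was 0.0408 for Ccn2, 0.0143 for Col4a1, 0.00147 for Col4a2, 0.0116 for Dpt, 2.52e-05 for Hspg2, 0.0338 for Itgbl1, 0.0342 for Pi16, 0.0361 for Tgfb1, 0.00133 for Thbs1, 0.00695 for Timp1 and 0.00748 for Tnc. The difference of Timp1 from sham was 3.84 at day 3, 1.71 at day 11 and 1.31 at day 28.

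Among proliferation and histone genes the adjusted p was 0.0444 for Anln, 0.0169 for Ect2, 0.00412 for H1f3, 0.0291 for H2ac4, 0.0219 for Kif23 and 0.014 for Mki67. The difference of Kif23 from sham was 0.38 at day 3, 1.42 at day 11 and 0.66 at day 28.

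Among transcription and chromatin genes the adjusted p was 0.0125 for Brd2, 3.09e-05 for Hipk2, 2.52e-05 for Kmt2d, 1.68e-06 for Nfic, 5.26e-05 for Nfix and 0.00108 for Polr2a. The difference of Polr2a from sham was 1.24 at day 3, 0.93 at day 11 and 0.16 at day 28.

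Among metabolic and protein folding genes the adjusted p was 0.0147 for Bcat2, 0.0136 for Ech1, 0.0284 for Hspa5, 0.0123 for Pfkl, 0.0257 for Sdf2l1 and 0.00255 for Xbp1. The difference of Pfkl from sham was 0.24 at day 3, 0.41 at day 11 and −0.13 at day 28.

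Among immune and blood genes the adjusted p was 0.00493 for Alas2, 0.016 for C1qa, 0.0327 for Cd55, 0.0279 for Retnla and 0.000676 for Rsad2. The day 11 difference of Alas2 was 0.85, and 0.37 without TAC JQ1 replicate 3, which stood apart from the other arrays of its group. The difference of Retnla from sham was −1.57 at day 3, −2.00 at day 11 and −0.50 at day 28.

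Among cytoskeletal and other genes the adjusted p was 7.74e-05 for Parvb, 2.64e-05 for Plec and 1.68e-06 for Ttc28. The difference of Ttc28 from sham was −0.09 at day 3, −0.06 at day 11 and −1.05 at day 28.

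Probe sets outside the gene-level comparison were examined with the same fit. Of 1321 probe sets annotated to several genes, 103 were called between TAC JQ1 and sham hearts at day 11, 81 higher and 22 lower (7.8%, against 10.5% of the genes compared). Of 11799 probe sets with no gene in the annotation, 59 were called, 31 higher and 28 lower (0.5%). Neither kind was named or placed in a class.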

How the results depend on the processing

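Of the 186 genes named, 138 were called against sham at day 11, and 0 changed direction with a call. Of the 138, 101 were called in every alternative fit that held the gene. The other thresholds, 1.5-fold and an adjusted p under 0.01, were not applied to single genes here. Of the 48 not called, 22 gained a call with array weights, 14 in the fit to the 2 groups and 13 in the fit to day 11. The count of 2097 genes was 2231 with quantile normalization of the deposited values and 1877 with arrays centred on their medians. The 999 higher genes came to 992 and 1042 in these settings, the 1098 lower to 1239 and 835, and the 320 newly lower to 349 and 226. Which direction held more genes thus depended on the normalization. The count was 2390 without the dimmest genes (1 in 3), 2099 with probe sets of a gene averaged and 2263 with the trend and robust options. It was 2346 in a fit to the 2 groups and 2702 in a fit to day 11. It was 378 at 1.5-fold or more. Weighting arrays gave 5461 genes, 2420 higher and 3041 lower, with 346 list members in place of 207. The classes then held 6536 genes in place of 2792: still higher 1073 and still lower 1193, newly higher 861 and newly lower 1009, no longer higher 1200 and no longer lower 1200, turned over 307. The F test between days gave 5020 in place of 1137. The cause was not tested.

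At an adjusted p under 0.01 the classes held 1406 genes: still higher 197 and still lower 254, newly higher 157 and newly lower 154, no longer higher 382 and no longer lower 262, turned over 16. Turned over came to 92 without the dimmest genes and to 121 in the fit to day 11. Over the fits that leave out 1 array, the count of 2097 ran from 1180 to 2052 (higher 528 to 965, lower 652 to 1087), list members from 143 to 204, and all classes from 1910 to 2337. Still higher ran from 244 to 365, still lower from 295 to 415, newly higher from 165 to 326, newly lower from 184 to 288, no longer higher from 493 to 627, no longer lower from 331 to 557 and turned over from 19 to 48. The F test ran from 827 to 1020. These fits have fewer arrays.

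The titles number replicates alike in every group without stating a pairing. The deviations of TAC JQ1 and sham arrays of one number correlated at −0.02, −0.20 and −0.41. Those of TAC JQ1 and TAC vehicle arrays correlated at −0.03, −0.19 and −0.46, and those of TAC vehicle and sham arrays at 0.01, 0.43 and 0.5. Arrays of unlike numbers correlated too, as TAC JQ1 replicate 3 and TAC vehicle replicate 2 at 0.42. The labels state no pairing and the signs differ between comparisons, so the numbers were not taken as pairs. With the replicate number as a block 1879 genes were called at day 11, and the F test between days gave 711. The 3 arrays per group limit the precision of every value.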
